A study of Ovis aries with 9 samples.

Results

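Among the small RNAs of ram sperm, many 5′ fragments of tRNAs were read with 1 to 3 adjacent bases missing. These deletion forms were found by their sequence: a sequence of 24 to 41 bases with no annotation and no match to the genome was taken when removal of 1 to 3 adjacent bases from an intact fragment of at least 100 reads gave exactly that sequence. The intact fragment, called the parent, had to be annotated in the same table as the 5′ end of a mature nuclear tRNA. By this rule 1202 deletion forms were found among 1311597 distinct sequences in the CON library, 566 among 1296002 in OVER and 810 among 1249810 in RES. Together they came to 1572 different sequences, of which 288 were deletion forms in all 3 libraries. The presence of reads chose these sequences, so their number and their share of reads are given as a description, with no test.

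The samples are sperm of wild-type F1 rams, taken from semen, and the study's title places the treatment in the mother's nutrition during gestation. The groups are CON (standard feeding), OVER (over feeding) and RES (restricted feeding), each labelled with 3 samples and with no age given. Sperm were treated with a lysis buffer against somatic cells before RNA extraction, and small RNA was size-selected before library making. The 3 tables of each group held the same sequences, reads and genome flags, so each group was counted as 1 library of 9983895 (CON), 8287937 (OVER) and 13160116 (RES) reads. Where 3 values follow each other without names, they are those of CON, OVER and RES in that order. Differences between libraries therefore have no replicate check, and all intervals are exact Clopper-Pearson 95% intervals that cover counting error only. Whether a library holds sperm of 1 ram or of several is not stated, and in such bulk RNA fewer cells of a type and less RNA per cell cannot be told apart. Of 8 microRNA markers looked up by name (germ line, epithelium and blood), 3 had a name in the tables, all of them epithelial. In CON, oar-mir-200a stood at 161, oar-mir-200b at 132 and oar-mir-200c at 171 RPM (reads scaled to equal library size). The values were 423, 326 and 344 RPM in OVER and 66.8, 32.6 and 34.5 RPM in RES. They were highest in OVER, and their part in the values below was not tested.

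A tRNA carries an amino acid to the ribosome, and its 5′ part holds the acceptor strand, the D arm and the start of the anticodon arm. Cleavage near the anticodon gives 5′ tRNA fragments of various lengths, which are among the most abundant small RNAs of mature mammalian sperm, with fragments of tRNA-Gly and tRNA-Glu prominent among them. tRNA bases are heavily modified after transcription, and reverse transcriptase, which copies RNA into the DNA that is sequenced, can stop, misread or skip at a modified base. The tables hold sequences of such copies, so a base missing from the RNA and a base skipped in copying cannot be told apart here.

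The deletion forms that carried most reads came from 4 families, and for 3 of them an abundant parent is shown here with its deletion form, because the pattern turns on these families. The Glu-2 parent shown led its family in OVER, while fragments of 30 bases were the commonest of Glu-2 in CON and RES. The family with most reads, Glu-1 (tRNA-Glu-CTC and tRNA-Glu-TTC), had 2 leading deletions, 1 G of a pair at bases 6 and 7, and 3 bases of a repeat at bases 5 to 11. Parents were grouped into families by their first 14 bases and numbered by reads within an amino acid. In the intact sequence, capitals mark the stretch from which bases are missing. In the deletion form, capitals mark what is left of that stretch. Where the stretch is a repeat, removal at several places gives the same sequence, and only the stretch can be named. Bases are counted from 1 at the 5′ end of the fragment. The sequences are those of the deposited tables, written as DNA.
Gly-1 (tRNA-Gly-CCC, tRNA-Gly-GCC and tRNA-Gly-TCC), intact: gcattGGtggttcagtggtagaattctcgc
Gly-1, 1 base missing: gcattGtggttcagtggtagaattctcgc
Pro-1 (tRNA-Pro-AGG, tRNA-Pro-CGG and tRNA-Pro-TGG), intact: ggcTCGTtggtctaggggtatgattctcg
Pro-1, 3 bases missing: ggcTtggtctaggggtatgattctcg
Glu-2 (tRNA-Glu-TTC), intact: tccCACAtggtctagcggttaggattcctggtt
Glu-2, 2 bases missing: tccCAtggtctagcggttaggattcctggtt

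The deletion forms held 762266 (CON), 222108 (OVER) and 449022 (RES) reads. That was 7.63%, 2.68% and 3.41% of the libraries, and 37.6%, 16.0% and 27.5% of all reads with neither an annotation nor a genome match. Beside their parents, which held 1935206, 617712 and 1432319 reads, they made up a deletion share (deletion forms as a share of deletion forms plus parents) of 28.3% (28.2 to 28.3%) in CON, 26.4% (26.4 to 26.5%) in OVER and 23.9% (23.8 to 23.9%) in RES. The order of CON and OVER depended on which parents were counted: over parents of 25 or more bases, the only ones that can give a deletion form of 24 or more bases, the shares were 28.7%, 29.1% and 25.1%. Of the parents of 25 or more bases, 302 of 348, 139 of 178 and 215 of 249 had at least 1 deletion form. With the shorter parents, which can have none, the parents numbered 370, 231 and 280. The reads were concentrated. The 5 leading deletions (2 in Glu-1 and 1 in each of Gly-1, Pro-1 and Glu-2) held 94.3%, 95.4% and 94.9% of the deletion reads, out of 536 different deletions (a family with the size and place of the missing bases), while 371, 186 and 227 deletion forms had 1 read. Below the limit of 100 reads, parents of 90 to 99 reads (20, 16 and 19 of them) had 42, 21 and 31 further deletion forms with 935, 352 and 1034 reads, and parents of 100 to 110 reads (20, 16 and 15) had 29, 12 and 22 with 266, 124 and 607 reads.

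The deletions belonged to few tRNAs. Fragments of tRNA-Glu had a deletion share of 36.2% in CON, 52.5% in OVER and 35.7% in RES. For tRNA-Pro it was 44.7%, 52.0% and 36.4%, and for tRNA-Gly 19.2%, 20.2% and 14.8%. Other abundant tRNA fragments had almost none. Fragments of tRNA-His, with 266126, 100599 and 292074 intact reads, had 0.576%, 0.553% and 0.515%, and fragments of tRNA-Val, with 77803, 74504 and 98832, had 0.157%, 0.0563% and 0.0667% (0.249%, 0.207% and 0.267% over parents of 25 or more bases). For tRNA-Lys the share was 0.325%, 0.361% and 0.353%, and for tRNA-Gln 2.84%, 4.31% and 2.34%. Of the 22 families with at least 1000 reads in all 3 libraries, out of 78, 5 had a share over 10% in all 3 (Glu-1, Gly-1, Pro-1, Glu-2 and Glu-5) and 10 had one under 1% in all 3. The 10 are not all evidence of few deletions. Phe/Ser-1 had no parent of 25 or more bases, so its share could only be 0%. Over parents of 25 or more bases, Ser-1 had 1.83% (CON), 4.37% (OVER) and 0% (RES), from few reads. Part of the products of Gly-2 are counted under Gly-1. These shares assign each deletion form to its most abundant parent. Parents of another family, mostly ones with a different base 6, could have given 91.5%, 85.1% and 93% of the deletion reads, so families such as Glu-4, Gly-3 and Gly-4 that differ from a more abundant one within the missing stretch are not compared.

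**Figure D1:**
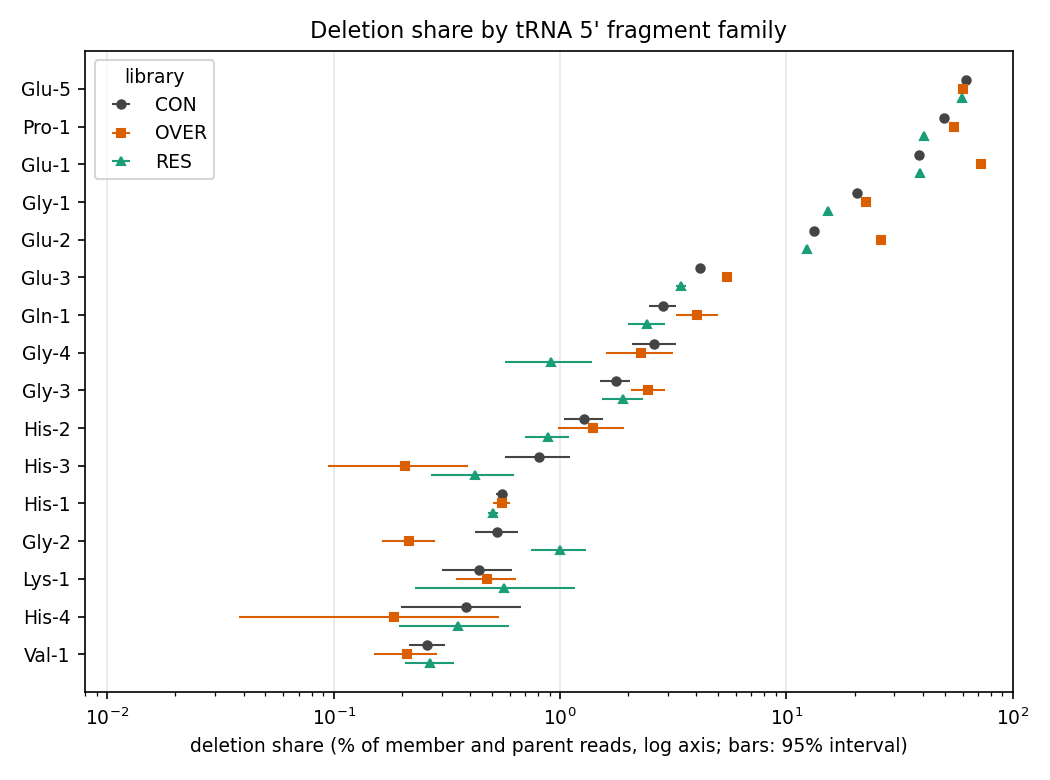
Deletion share of each family, in percent on a log axis, for the 16 families with at least 1000 reads of deletion forms and parents of 25 or more bases in every library; points are the 3 libraries and bars are 95% counting intervals. Pro-1, Glu-1, Gly-1 and Glu-2 lie above 10% and His-1 and Val-1 under 1% in every library; products of Gly-3, Gly-4 and, in part, Glu-3, Glu-5 and Gly-2 coincide with those of a more abundant family and are counted there.

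tRNA-Cys and tRNA-Leu stood apart with few reads. The leading tRNA-Cys-GCA fragment lacked the single T of base 19, in the D loop (capitals mark this base, and in the deletion form the bases then joined).
Cys-1, intact: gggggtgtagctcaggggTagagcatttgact
Cys-1, 1 base missing: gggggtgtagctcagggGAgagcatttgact
This form had 1007 reads beside 1278 of its parent in CON, 111 beside 95 in OVER and 670 beside 764 in RES, a share of 44.1%, 53.9% and 46.7% of each pair. In OVER it is not a deletion form by the rule, since its parent had fewer than 100 reads. The tRNA-Leu share was 13.6% (CON), 0.0784% (OVER) and 4.35% (RES) and rested on 304, 3 and 119 reads, and over parents present in all 3 libraries it was 0.117% in CON and 0% in RES. The leading Leu form lacked 2 of 3 C at bases 26 to 28, with 205, 18 and 63 reads beside 224, 11 and 126 of its parent. That made up 47.8%, 62.1% and 33.3% of each pair. In OVER this form too is not a deletion form by the rule, since its parent had fewer than 100 reads, so the low tRNA-Leu share there leaves it out.

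Nearly all missing bases lay in one short part of the fragment. Each deletion was placed by the middle of the stretch from which its bases could be missing. Deletions with this middle in bases 4 to 9 held 97.4%, 97.6% and 97.3% of the deletion reads. Bases 10 to 25 held 2.39%, 2.26% and 2.55%. Deletions whose stretch reached the first 3 bases held 0.0391%, 0.0572% and 0.0303%. Bases 4 to 9 cover the inner part of the 5′ acceptor strand and the bases that link it to the D arm. The stretch of the 3-base Glu-1 form, bases 5 to 11, runs past base 9. For its 275616, 88884 and 191853 reads, some of the missing bases may lie beyond base 9.

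**Figure D2:**
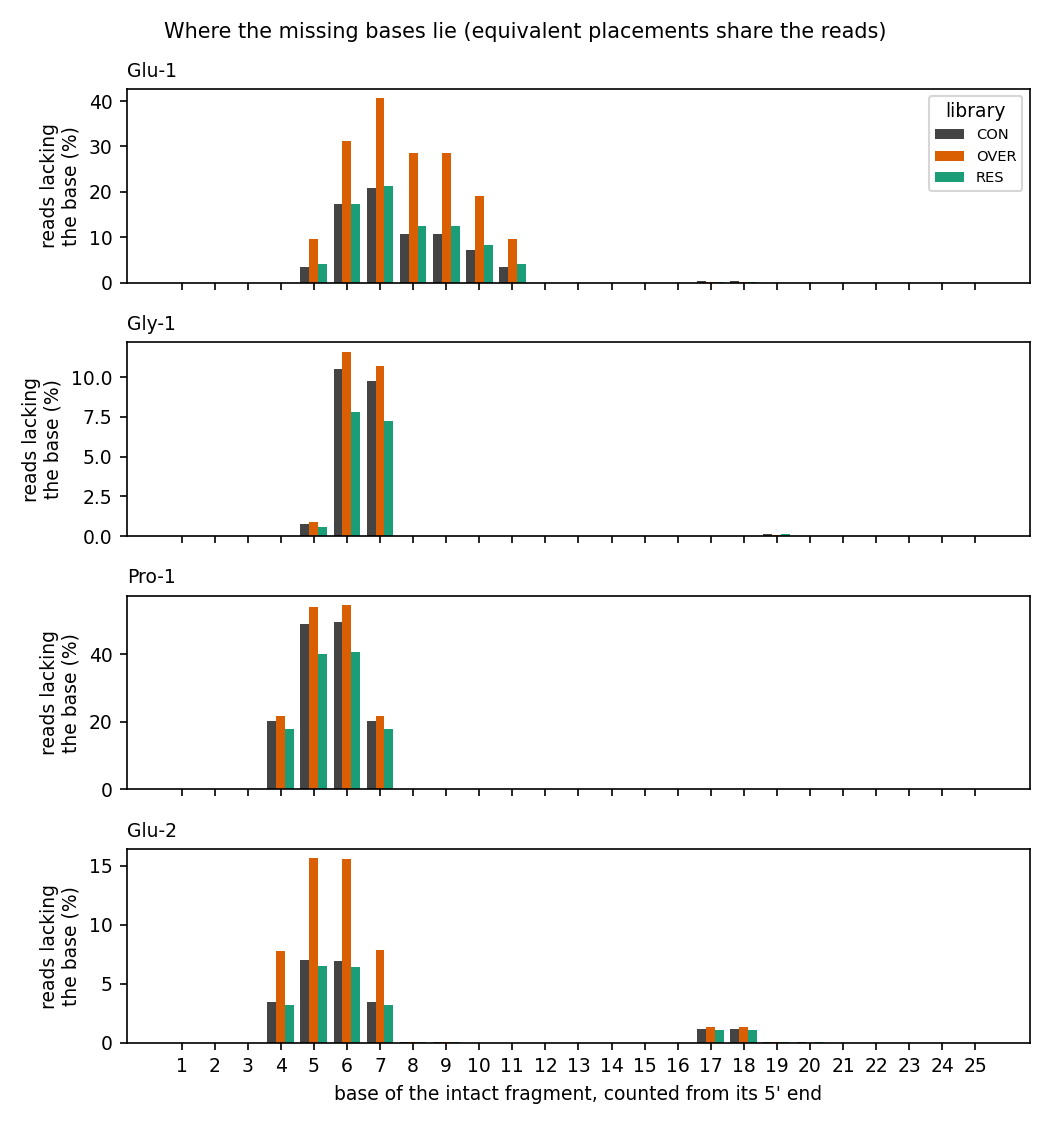
Percent of reads that lack each base (vertical axis) against the base counted from the 5′ end (horizontal axis) in families Glu-1, Gly-1, Pro-1 and Glu-2, for the 3 libraries; where a deletion can be placed at several bases its reads are shared equally among the placements. The bars stand at bases 5 to 11 in Glu-1, 5 to 7 in Gly-1 and 4 to 7 in Pro-1 and Glu-2, with a second, lower place at bases 17 and 18 of Glu-2.

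Sizes of 1 and 3 bases carried most reads. One missing base accounted for 56.6%, 50.8% and 51.2% of the deletion reads. Deletions of 3 bases held 40.0%, 41% and 45.7%. Deletions of 2 bases held 3.34%, 8.14% and 3.10%. Larger deletions were rare: internal deletions of 4 to 10 bases, searched in the same way, had 3139, 758 and 1452 reads, which is 0.412%, 0.341% and 0.323% of the number in the deletion forms. Reads lacking 1 or 3 bases lacked them mostly from repeats. A repeat here is any stretch where removal at more than 1 place gives the same sequence. For 3 bases, 1 matching base beside them is enough, as in TCGT of Pro-1. Of the reads lacking 1 base, 99.2%, 99.6% and 99.1% lacked it from a run of the same base, whereas 30.7%, 28.9% and 29.5% of all 1-base removals that the parents allow, weighted by the parents' reads, lie in such a run. For 3 bases the values were 99.9%, 99.7% and 99.9% of reads against 26.6%, 28.8% and 27.8% of possible removals. For 2 bases they were 45%, 81.1% and 56.2% against 18.7%, 19.3% and 18.2%. The single 2-base deletion of Glu-2 gave 11020, 14507 and 7653 of these 11480, 14664 and 7818 reads. Counted as forms, 24.1%, 23.6% and 24.6% of the 2-base forms lay in a repeat. That was near the 19.9%, 19.5% and 19.5% of possible 2-base removals, unweighted. For 1 base, 65.4%, 68.9% and 66.25% of the forms lay in a repeat, beside 25.7%, 24.5% and 25.2% of possible removals. For 3 bases it was 67.6%, 58.4% and 70.3% of the forms, beside 27.4%, 28.3% and 28.1%. The higher values by reads rest mostly on the leading deletions of Glu-1, Gly-1 and Pro-1.

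The same repeat at another place of the same fragment had far fewer deletions. Family Glu-1 has 4 pairs of G. The pair at bases 6 and 7 lacked 1 G in 20.4% (20.3 to 20.4%) of the family's reads in CON, 24% (23.8 to 24.2%) in OVER and 17.9% (17.8 to 18%) in RES. At bases 9 and 10 it was 15, 2 and 1 reads, or 0.000964%, 0.00107% and 0.000108%. At bases 17 and 18, in the D loop, it was 0.573%, 0.276% and 0.481%. At bases 22 and 23 it was 2 reads in CON and 0 reads in OVER and RES, where counts of 0 allow up to 0.00198% and 0.000397%. Gly-1 showed the same order, with 19.5%, 21.4% and 14.5% at bases 6 and 7, and 10, 6 and 5 reads at bases 9 and 10. In families without a pair of G at bases 6 and 7, the pair at bases 17 and 18 led the 1-base deletions of Glu-2 (2.32%, 2.70% and 2.22%) and Glu-3 (2.82%, 3.93% and 2.52%). In His-1, whose base 1 is the G that is added to tRNA-His after transcription, the pair lies at bases 18 and 19 and the share was 0.382%, 0.390% and 0.361%.

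The 3-base deletion was found in Glu-1 and almost not in Gly-1, although both hold the same 7 bases at the same place. Capitals mark them here in Gly-1.
Gly-1: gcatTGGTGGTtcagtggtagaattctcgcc
Glu-1 fragments lacking 3 of these bases had 275616 (CON), 88884 (OVER) and 191853 (RES) reads, a share of the family's reads of 17.7%, 47.7% and 20.6%. Genome-matching 5′ fragments of tRNA-Gly with TGGTGG away from either end had 357648, 217946 and 278982 intact reads, and the forms lacking 3 bases had 31, 25 and 26 reads, a share of 0.00867%, 0.0115% and 0.00932%. At bases 6 and 7, by contrast, both families lacked 1 G, as given above. Misc RNA with TGGTGG had 250 intact reads in CON and 517 in RES and no form lacking 3 bases, where counts of 0 allow up to 1.46% and 0.711%.

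Some families that differ by a single base also differed in their deletions. Pro-2 differs from Pro-1 by G9C, and both are flagged as matching the genome. The flag also passed 772, 710 and 3572 sequences with 1 unread base (N) and 0 with more, so a gene copy and a misread base cannot be told apart from it.
Pro-1, base 9 marked: ggctcgttGgtctaggggtatgattctcg
Pro-2, base 9 marked: ggctcgttCgtctaggggtatgattctcg
Pro-1 had a deletion share of 49.7% in CON, 54.9% in OVER and 40.7% in RES. Pro-2, with 5647, 242 and 3131 intact reads, had 3.11%, 3.59% and 2.40%, and at most 3.72%, 4.35% and 2.70% if every read it could have given were its own. Other changes of base 9 went both ways. Pro-3 (G9A) had 2.04% in CON and 0.896% in RES. Pro-5 (G9T) had 39.8% in CON and 24.2% in RES, from 260 and 141 intact reads. Neither had a parent in OVER. Glu-5 differs from Glu-1 by the change of Pro-2, G9C. Glu-5 products that lack bases 8 to 10 are identical to the 3-base form of Glu-1 and are counted there, so the 1-base form is compared here without it. In Glu-5, the form lacking 1 G of bases 6 and 7 had 4486, 1020 and 2478 reads beside 2887, 728 and 1785 intact ones. It held 58.3%, 55.7% and 55.8% of the family's assigned reads, which also include its other deletions. In Glu-1 the 1-base form made up 24.9%, 46.2% and 22.7% of itself and the intact reads, a whole without other deletions. The 2 sets of shares are therefore not on exactly the same measure. The gap was smallest in OVER. Gly-2 differs from Gly-1 by T5G, which turns the pair of G into a run of 3.
Gly-1, bases 5 to 7 marked: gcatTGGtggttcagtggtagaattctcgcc
Gly-2, bases 5 to 7 marked: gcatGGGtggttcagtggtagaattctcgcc
Gly-2 had 16246, 25909 and 5168 intact reads and could have given at most 182, 114 and 113 reads lacking 1 base at any place. It could also have given at most 3238, 2504 and 1798 reads lacking 2 bases, most of which are counted under Gly-1. With all sizes, its deletion share could be at most 17.5%, 9.30% and 27.3%, so only the 1-base deletions are compared. Gly-1 fragments that lacked 1 G at bases 6 and 7 had 87516, 61114 and 48076 reads beside 357880, 221239 and 280243 intact ones.

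Substituted reads marked some of the same bases. In Glu-1, base 6 was read as another base in 1.28% of reads (CON), 1.37% (OVER) and 1.25% (RES) (most often G6A), and base 9 in 0.503%, 2.44% and 0.523% (most often G9C), against a median over bases 4 to 25 of 0.0388%, 0.0489% and 0.0366%. In Pro-1, base 9 was substituted in 19.2%, 17% and 18.1% and base 6 in 2.95%, 2.78% and 2.23%. In His-1 and Val-1, where deletions were rare, base 7 was substituted in 3.65%, 3.46% and 3.70% and in 3.13%, 2.82% and 3.52%. Substituted reads can also be other gene copies, and their link to the missing bases was not tested. Added bases were rare except in Pro-1. Parents with 1 to 3 bases inserted had 2810, 358 and 1121 reads, 0.147%, 0.0647% and 0.0825% of all parents with them. In Pro-1 these made up 6.30%, 6.11% and 3.83%, and in Glu-1 0.00388%, 0.00575% and 0.00283%.

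Fragments that begin 1 base further in are outside the rule and gave a separate look at the same sites. Glu-1 fragments starting at base 2 lacked 3 bases of the TGGTGGT stretch in 28.9% (27.8 to 30.1%) in CON, from 1761 reads beside 4326 intact. The share was 44.5% (40.03 to 49%) in OVER and 32.6% (30.9 to 34.4%) in RES. From base 1, counted in the same way, the values were 22.4%, 63% and 25.3%. For 1 G of bases 6 and 7 the share from base 2 was 16% (15 to 17%), 2.16% (0.796 to 4.64%) and 9.36% (8.13 to 10.7%), the OVER value from 6 reads beside 272 intact. From base 1 it was higher, at 24.9%, 46.2% and 22.7%. Gly-1 fragments starting at base 2 gave 17.6% (15.9 to 19.3%), 14.8% (10.5 to 19.9%) and 13.7% (12 to 15.6%) at bases 6 and 7, beside 19.6%, 21.6% and 14.6% from base 1. Pro-1 fragments gave 59.9% (56.7 to 62.9%), 77.8% (69.8 to 84.5%) and 66% (61.5 to 70.2%) for 3 bases, above the 44.6%, 48.9% and 37.5% from base 1, the OVER value from 105 reads beside 30 intact. The 2-base deletion of Glu-2 had 2, 3 and 1 reads in fragments starting at base 2, beside 786, 259 and 656 intact ones, a share of 0.254%, 1.15% and 0.152%. From base 1 it made up 10.7%, 24.1% and 9.92%. The product of this deletion is the same as that of Glu-3, the other tRNA-Glu-TTC family, lacking 2 bases at the same place: 10965, 14479 and 7653 of its 11020, 14507 and 7653 reads could have come from either. Over both families together it made up 7.17%, 14.5% and 6.30%.

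Between the libraries, the share of the 3-base form of Glu-1 differed more than that of the 1-base form, and was highest in OVER. For fragments 30 bases long when intact, the 1-base form held 21.9% (21.8 to 22%) of the intact, 1-base and 3-base reads in CON, 27% (26.6 to 27.3%) in OVER and 19.3% (19.2 to 19.4%) in RES. The 3-base form held 14.9% (14.8 to 15%), 56.4% (56.0 to 56.8%) and 18.2% (18.1 to 18.3%). At 33 bases the 1-base form held 21.4%, 21.5% and 18.1%, and the 3-base form 8.90%, 47.5% and 12.6%. From 28 to 34 bases the 3-base share in OVER lay between 32.1% and 57.5%, above all values of CON (4.35 to 15.5%) and RES (6.96 to 21.9%) at those lengths. The 3-base share also differed between lengths within a library. At 40 bases, where OVER has no parent of 100 reads, the 3-base form held 39.5% in CON and 45.7% in RES, and at 39 bases 2.96% and 2.57%. The 1-base form stood at 20.7% and 18.3% at 40 bases. These shares count the 3-base reads in the whole, which lowers the 1-base share most in OVER, where they are many. Beside the leading intact parent alone, the 1-base form held 25.7%, 61.8% and 23.6% at 30 bases and 23.4%, 41.1% and 20.7% at 33 bases. For the 3-base form these values were 19.0%, 77.2% and 22.6% at 30 bases and 11.4%, 60.8% and 15.5% at 33 bases. In OVER the 37-base form that belongs to the 40-base fragment had 1252 reads beside 41 intact ones. Some Glu-1 products of 24 to 27 bases matched the genome or had an annotation and are outside the rule, with 2481, 1127 and 2249 reads of the 1-base and 572, 823 and 637 reads of the 3-base form.

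**Figure D3:**
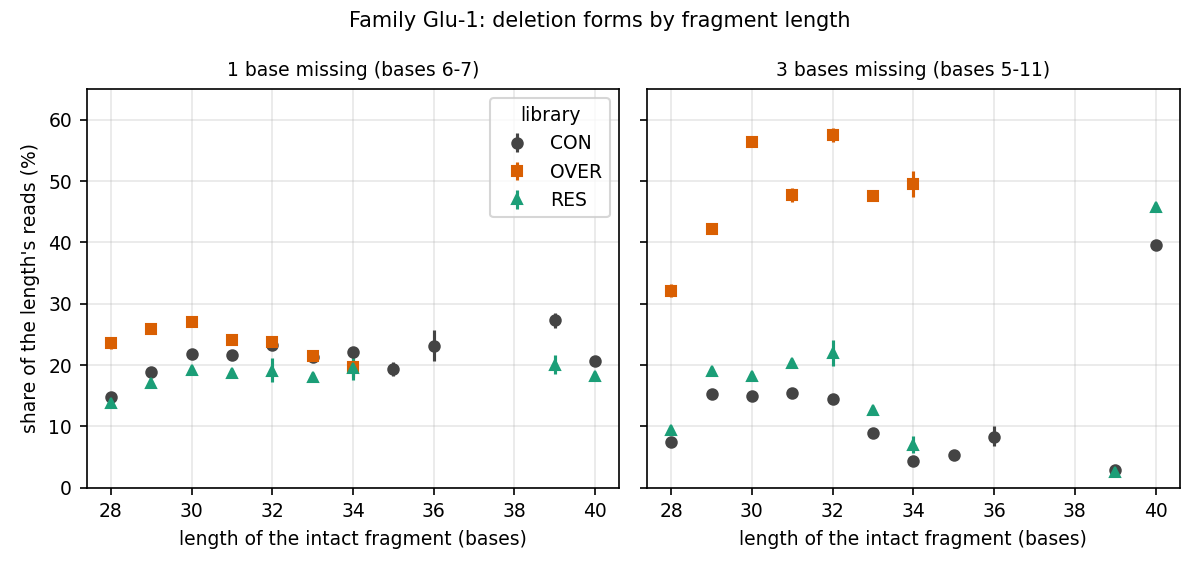
Family Glu-1: share of reads lacking 1 base at bases 6 and 7 (left) and 3 bases in bases 5 to 11 (right), in percent of intact, 1-base and 3-base reads together, against the length of the intact fragment; points are lengths with at least 1000 such reads and bars are 95% counting intervals. At each length shown for OVER, its point stands above the others on the right, at 32.1% to 57.5%, while on the left the libraries lie within 13.8% to 27.3%. The 3-base reads are part of the whole, which lowers the share on the left most in OVER.

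In RPM, the intact Glu-1 fragments differed more between CON and OVER than their 2 leading deletion forms. Intact Glu-1 fragments of 25 or more bases stood at 95504 (CON), 6292 (OVER) and 43027 (RES) RPM. CON exceeded OVER 15.2-fold and RES 2.22-fold. The 1-base form stood at 31718, 5402 and 12631 RPM, and CON exceeded the others 5.87-fold and 2.51-fold. The 3-base form stood at 27606, 10725 and 14578 RPM, with ratios of 2.57 and 1.89, and in OVER was more abundant than its intact parents. For Pro-1 the parents (3478, 231.7 and 1576 RPM) and the 3-base form (2802, 222.1 and 946.04 RPM) were both lower in OVER than in CON, by ratios of 15.01 and 12.6. Intact Gly-1 stood at 35846, 26694 and 21295 RPM and its 1-base form at 8766, 7374 and 3653 RPM. The 2-base form of Glu-2 was the one leading form that was highest in OVER, at 1104, 1750 and 582 RPM, while its parents stood at 9173, 5512 and 5280 RPM.

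**Figure D4:**
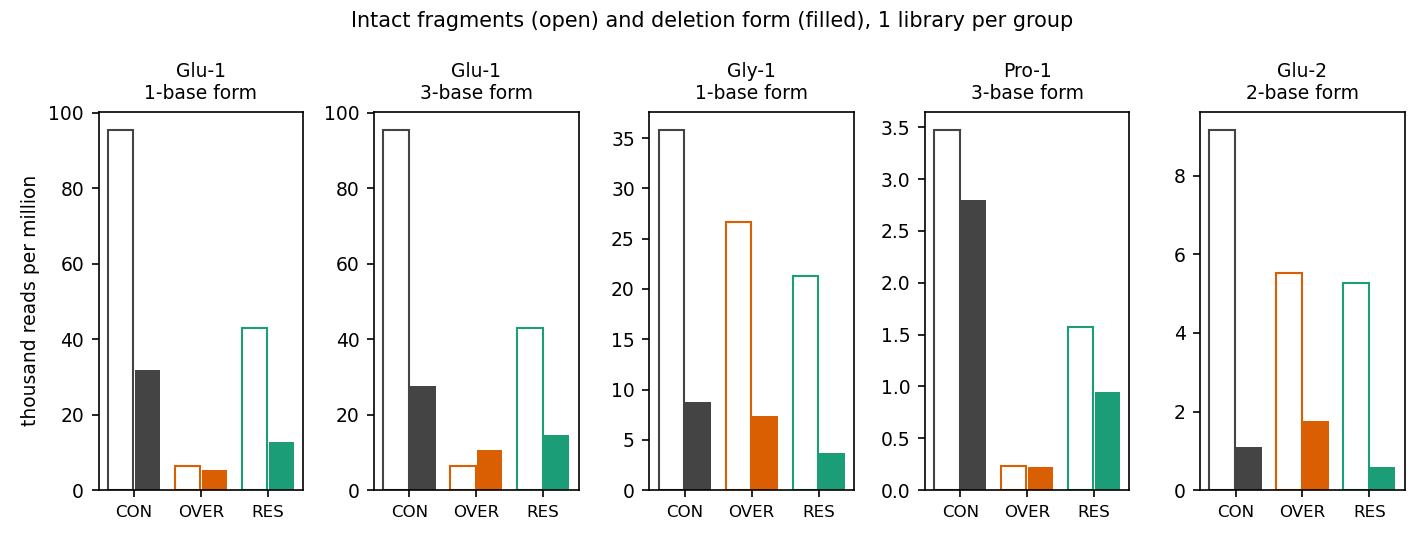
Level of the 5 leading deletion forms (filled bars) and of all intact fragments of their family with 25 or more bases (open bars) in units of 1000 RPM, 1 library per group, so no error bars. In OVER the filled bar of the 3-base Glu-1 form, 10725 RPM, exceeds the open bar, 6292 RPM, and that of Glu-2 is the highest of its 3 libraries.

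Between OVER and CON, single deletion forms differed in both directions, as did their parents. The 30-base Gly-1 form, whose parent has 31 bases, had 6404 (CON), 34242 (OVER) and 1132 (RES) reads, a log2 ratio of RPM of 2.69 (2.65 to 2.73) for OVER against CON and -2.90 (-2.99 to -2.81) for RES against CON. Its parent had 25429, 125228 and 6502 reads, and the share of the pair was 20.1%, 21.5% and 14.8%. The 31-base Glu-2 form, shown above with its 33-base parent, had 2363, 11211 and 216 reads, log2 ratios of 2.51 and -3.85, beside 10112, 29280 and 1271 reads of its parent. The 29-base Glu-1 form, the deletion form with most reads in CON, had 126631, 15257 and 84104 reads, log2 ratios of -2.78 and -0.99. The 39-base Glu-1 form of the 40-base fragment that lacks a G at bases 17 and 18 was the lowest of the named forms in OVER against CON, with 1456 (CON), 1 (OVER) and 503 (RES) reads. The named deletion form with the highest ratio in RES against CON was a 33-base form of His-1, with 197, 70 and 280 reads, a log2 ratio of 0.11 (-0.16 to 0.38).

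Of the deletion forms with at least 100 reads in CON and OVER together, 22 of 169 (13%) stood 2-fold or more above CON in OVER on RPM, and 121 (71.6%) stood 2-fold or more under it. Over all 9319 sequences with that many reads, 34.5% stood that far above and 34.7% that far under. For RES against CON, 0 of 182 were higher and 115 (63.2%) lower, against 26.8% and 13.9% of all 11737 sequences. For OVER against RES, 36 of 138 (26.1%) were higher and 57 (41.3%) lower, against 25.4% and 37.8% of all 11256. The comparisons share libraries and the deletion forms of 1 family share their parents, so these counts are not independent. A form entered through any library in which its parent had at least 100 reads. CON had the most such parents, 370 beside 231 in OVER and 280 in RES, so the choice favours forms that are high in CON. All sequences passed no such filter, so their percentages and the medians below are not a like background, and no conclusion is drawn from the difference. The median log2 ratio of the deletion forms was -1.92, -1.22 and -0.68, and that of all sequences -0.08, 0.20 and -0.39.

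The same search was run on other RNAs of the libraries, counting internal deletions only (none of the first or last 3 bases removed). Their deletion share was 0.0576% for microRNAs in CON, 0.0838% in OVER and 0.0852% in RES. For Y RNAs it was 0.0272%, 0.0277% and 0.0196%, and for rRNA 0.0824%, 0.0684% and 0.0921%. Mitochondrial tRNAs had 2.25%, 3.71% and 2.17%, and nuclear tRNA fragments without a 5′ end term 1.005%, 0.593% and 0.567%. Nuclear tRNA 5′ fragments other than those of Glu, Gly and Pro had 1.14%, 0.538% and 0.871%, and those of Glu, Gly and Pro 32.9%, 35.8% and 30.7%. In every library the tRNA classes lay above microRNA, Y RNA and rRNA by more than the counting error.

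**Figure D5:**
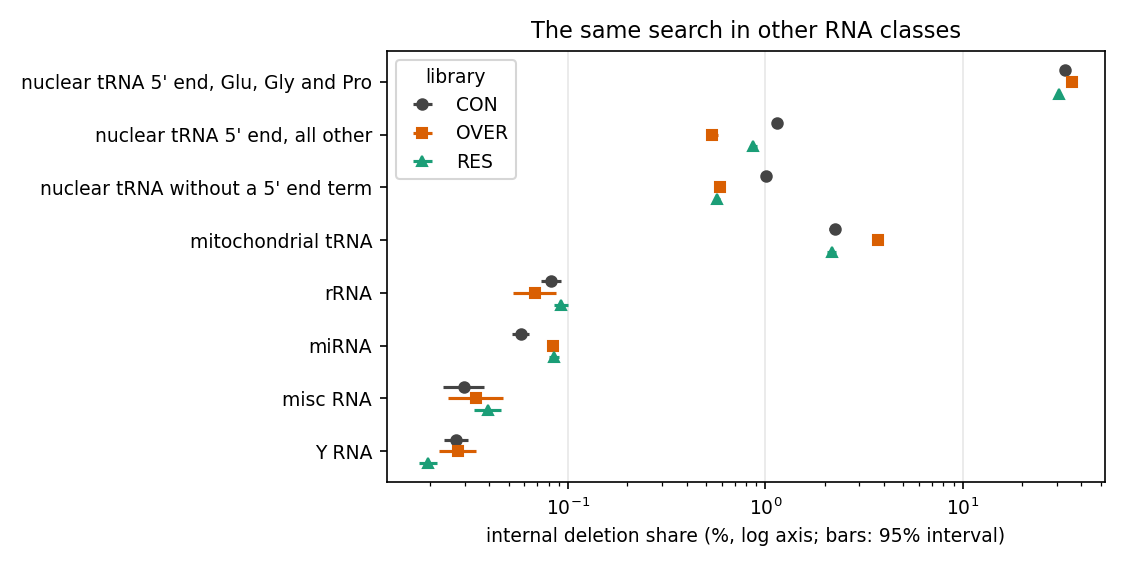
Share of reads with an internal deletion of 1 to 3 bases, in percent on a log axis, for nuclear tRNA 5′ fragments and other RNA classes in each library, with 95% counting intervals. Fragments of Glu, Gly and Pro lie between 30.7% and 35.8%, other tRNA fragments between 0.538% and 3.71%, and rRNA, microRNA, misc RNA and Y RNA under 0.1%.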

How the data were processed

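The tables deposited by the authors give, per the file headers, each distinct sequence with its length, its count of reads, a genome flag and an annotation. Counts are whole numbers without normalization. The submitters' processing notes name edgeR, and the sources used here name no aligner, annotation tool or genome build. Members and lists were chosen with earlier results of these data known.

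A deletion form was assigned to the parent with most reads. Level ratios are log2 ratios of RPM, with counts under 3 set to 3 reads. The named forms are the 8 with most reads in each library, the leading form of each amino acid with at least 100 deletion reads, and the 5 highest and 5 lowest in OVER and in RES against CON, of which the text gives the leading ones. Scaling alternatives used edgeR 4.0.16 (TMM) and DESeq2 1.42.0 under R 4.3.3; all else used Python 3.11.15 and SciPy 1.17.1. The search was tested on simulated tables: 170 of 170 (CON), 130 of 130 (OVER) and 171 of 171 (RES) deletions put in were found at the right size, 165, 128 and 167 in the right family. The search tries every removal, so finding them checks only that it runs as written. The deletions were put in at random places. The family counts therefore do not carry over to the real forms, most of whose reads another family could also have given. The planned edgeR quasi-likelihood test was not run, because each group is 1 library. The sequences of family Glu-1 and its close neighbours are not reported here.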

Additional observations from a re-analysis of the deposited data

How the results depend on the processing

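No paired analysis was possible because the 3 tables of a group are the same, and leaving out a replicate was not run for the same reason. The deletion share in CON, OVER and RES was 28.5%, 26.4% and 24% with parents of at least 10 reads, 28.5%, 27.5% and 24% with at least 1000, 24.8%, 27.3% and 21.5% with parents of at least 100 reads in all 3 libraries, and 28.4%, 26.6% and 24% with genome-matching parents. It was 17.4%, 20.8% and 13.4% for deletion forms of 28 to 34 bases and 18.2%, 15.5% and 13.8% for 1-base deletions. The 28 to 34 base setting limited the deletion forms but kept all parents. In CON it left out the 37-base and 39-base Glu-1 forms of 96924 and 50934 reads and kept their parent of 97852 reads. In OVER that parent, with 41 reads, was not counted. The OVER minus CON value of this setting, given below, is therefore not one of like shares. With members of any annotation and genome match the deletion share was 39.5%, 43.6% and 42.4%, where 98.6%, 98.9% and 99.3% of the added reads lacked only bases at or near an end. Chosen after seeing the data, parents of 25 or more bases gave 28.7%, 29.1% and 25.1%, and leaving out family Glu-1 gave 14%, 13.4% and 9.01%. OVER minus CON, -1.81 percentage points as reported, turned to 2.54 with common parents, 3.34 for 28 to 34 bases, 4.05 with any annotation and 0.44 with parents of 25 or more bases; RES minus CON, -4.39, turned to 2.87 with any annotation. The amino acids over 10% in CON numbered 5 as reported and 3 with common parents, where Cys and Leu drop out. With at least 20 reads in place of 100, the deletion forms at least 2-fold higher and lower were 44 and 238 in OVER against CON, 5 and 219 in RES against CON and 69 and 127 in OVER against RES. With no minimum they were 87 and 342, 12 and 353, and 147 and 162. Under TMM and DESeq2 scaling the counts stayed within 1.5 times, the 0 forms higher in RES included, and no named form at least 2-fold apart changed direction.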
